A study of Mus musculus with 10 samples.

Results

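The genes examined were 7 regulators of globin gene switching: Bcl11a, Zbtb7a, Ikzf1, Sox6, Gfi1, Gfi1b and Kdm1a, out of 21853 protein-coding genes in the GENCODE M21 annotation. For each gene, the ATAC-seq peak summits from 50 kb upstream to 50 kb downstream of its annotated span were collected, a rule that uses no measured value. The 10 peak lists held 146939 summits, of which 335 fell in these windows. Summits that lay close together across the libraries were merged into 28981 regions, and 66 of those were near the 7 genes.

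ATAC-seq, in which a transposase cuts accessible DNA, was performed on about 50000 G1E-ER4 cells per library. G1E-ER4 (G1ER) is a mouse erythroid line, a subclone of Gata1-null G1E cells, and all 10 libraries came from this 1 line. Every group, the 0 h control included, lacks endogenous Gata1 and carries a fusion of GATA1 to the ligand-binding domain of the estrogen receptor, which estradiol activates. Cells were grown with 50 ng/mL stem cell factor and 2 U/ml erythropoietin and taken after 0, 2, 6, 12 or 24 h in 1e-07 M β-estradiol, with 2 replicates per time point. The study describes the replicates as independent experiments, and the labels give only their numbers.

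BCL11A and ZBTB7A (LRF) are zinc finger proteins that bind the promoters of fetal-type γ-globin genes in adult human erythroid cells and repress them through the NuRD complex. SOX6 is an HMG-box factor that silences embryonic globin together with BCL11A, and IKZF1 (Ikaros) is a zinc finger factor best known in lymphocytes that also acts on the β-globin locus. GFI1 and its erythroid and megakaryocytic relative GFI1B are SNAG-domain repressors that recruit KDM1A (LSD1), a histone demethylase of the CoREST complex. The mouse switches from embryonic to adult globin and has no separate fetal-stage γ-globin program. GATA1 binds sites of the form WGATAA, where W is A or T.

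Each peak carries a score, the −log10 of its q-value, and scores were not scaled between libraries. Values below are therefore percentiles: the share of a library's own list with a lower score, so that 100 is the top of the list. Pairs of values are given as replicate 1 and then replicate 2, and runs of 5 values follow the 5 time points in order. A region was called a promoter when a summit lay within 1 kb of an annotated transcript start of the gene, a neighbour promoter when it lay within 1 kb of a start of another protein-coding gene, and distal otherwise. Region names give the distance of the midpoint from the start of the gene, positive in the direction of transcription. The lists held 10698 to 19859 peaks, and 23 to 43 summits per list were near the 7 genes (0.210% to 0.256%). The shortest lists were those of 24 h replicate 2 (10698) and 0 h replicate 2 (11698), and read depth is unknown from the files. The median score was 5.68 to 6.48 in the replicate 1 lists and 6.73 to 7.68 in the replicate 2 lists.

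The sequences below are the central 200 bases of the regions on which the results turn, taken from the plus strand of mm10. Capitals mark each WGATAA match, or its reverse complement TTATCW, on either strand. The regions shown include the 2 most often listed in Bcl11a. The 4 Ikzf1 and Sox6 regions that were listed in both libraries at 0 h and in neither at 24 h follow. Also shown are 3 other intronic regions of these genes (Ikzf1 +27.0 and +44.4 kb and Sox6 +488.2 kb). In each replicate, these 3 were lower at 24 h than at 0 h, or unlisted at 24 h. A Sox6 region and the Gfi1b promoter hold a CTG ahead of a GATA match. The last are the regions near Gfi1 and Gfi1b that were in every list. Ikzf1 +34.9 kb and Sox6 +499.6 kb hold no match.
Bcl11a +52.0 kb (chr11:24129929-24130128): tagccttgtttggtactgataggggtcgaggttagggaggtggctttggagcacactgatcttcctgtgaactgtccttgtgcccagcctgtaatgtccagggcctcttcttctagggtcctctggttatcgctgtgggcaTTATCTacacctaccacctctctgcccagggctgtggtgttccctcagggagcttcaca
Bcl11a +58.2 kb (chr11:24136207-24136406): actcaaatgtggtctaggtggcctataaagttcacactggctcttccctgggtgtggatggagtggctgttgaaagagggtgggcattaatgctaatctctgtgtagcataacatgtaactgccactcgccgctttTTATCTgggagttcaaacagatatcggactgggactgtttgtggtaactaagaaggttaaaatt
Ikzf1 +27.0 kb (chr11:11711869-11712068): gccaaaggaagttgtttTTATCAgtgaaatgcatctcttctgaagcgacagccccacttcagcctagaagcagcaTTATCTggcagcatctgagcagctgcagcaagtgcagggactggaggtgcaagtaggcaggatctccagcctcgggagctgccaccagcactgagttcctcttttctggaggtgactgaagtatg
Ikzf1 +34.9 kb (chr11:11719825-11720024): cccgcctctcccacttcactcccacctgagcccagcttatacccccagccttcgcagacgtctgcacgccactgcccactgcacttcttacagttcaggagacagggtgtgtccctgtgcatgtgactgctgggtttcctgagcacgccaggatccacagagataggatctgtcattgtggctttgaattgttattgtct
Ikzf1 +44.4 kb (chr11:11729286-11729485): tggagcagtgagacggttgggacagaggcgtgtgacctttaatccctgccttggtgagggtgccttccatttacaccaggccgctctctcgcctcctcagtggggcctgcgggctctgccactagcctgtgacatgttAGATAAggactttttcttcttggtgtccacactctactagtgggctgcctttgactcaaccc
Ikzf1 +50.4 kb (chr11:11735319-11735518): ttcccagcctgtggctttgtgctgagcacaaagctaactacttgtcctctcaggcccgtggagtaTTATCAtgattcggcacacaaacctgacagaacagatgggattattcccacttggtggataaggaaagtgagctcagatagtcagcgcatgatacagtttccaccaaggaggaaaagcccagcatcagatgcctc
Sox6 +96.8 kb (chr7:115941855-115942054): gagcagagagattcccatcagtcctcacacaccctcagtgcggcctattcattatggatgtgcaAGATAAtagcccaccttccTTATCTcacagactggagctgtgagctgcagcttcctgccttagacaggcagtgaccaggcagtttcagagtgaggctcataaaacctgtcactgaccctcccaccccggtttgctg
Sox6 +207.7 kb (chr7:115830990-115831189): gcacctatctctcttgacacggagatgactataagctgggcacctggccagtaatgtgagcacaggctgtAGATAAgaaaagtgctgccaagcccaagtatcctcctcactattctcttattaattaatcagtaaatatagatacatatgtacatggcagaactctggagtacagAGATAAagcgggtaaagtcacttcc
Sox6 +488.2 kb (chr7:115550518-115550717): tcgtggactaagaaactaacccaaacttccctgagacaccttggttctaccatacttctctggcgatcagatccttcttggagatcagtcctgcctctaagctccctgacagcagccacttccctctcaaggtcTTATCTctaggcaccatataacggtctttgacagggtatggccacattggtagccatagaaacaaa
Sox6 +499.6 kb (chr7:115539115-115539314): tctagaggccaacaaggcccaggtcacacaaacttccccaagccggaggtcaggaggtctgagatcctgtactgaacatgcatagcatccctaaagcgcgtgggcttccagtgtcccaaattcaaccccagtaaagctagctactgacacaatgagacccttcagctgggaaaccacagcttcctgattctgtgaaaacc
Gfi1 −33.3 kb (chr5:107759242-107759441): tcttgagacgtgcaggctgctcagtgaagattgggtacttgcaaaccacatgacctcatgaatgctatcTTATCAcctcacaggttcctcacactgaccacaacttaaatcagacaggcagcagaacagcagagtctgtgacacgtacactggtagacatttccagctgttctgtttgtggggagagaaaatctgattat
Gfi1b +23.8 kb (chr2:28598087-28598286): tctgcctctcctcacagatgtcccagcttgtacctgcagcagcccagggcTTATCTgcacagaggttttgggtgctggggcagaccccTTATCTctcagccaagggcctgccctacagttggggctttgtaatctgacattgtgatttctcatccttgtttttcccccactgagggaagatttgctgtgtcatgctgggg
Gfi1b +0.0 kb (chr2:28621918-28622117): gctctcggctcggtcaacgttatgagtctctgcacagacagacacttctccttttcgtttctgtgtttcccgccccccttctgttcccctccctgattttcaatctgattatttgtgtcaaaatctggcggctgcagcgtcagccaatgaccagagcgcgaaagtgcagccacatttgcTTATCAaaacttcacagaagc

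Of the 66 regions, 9 were promoters of the 7 genes, 8 were neighbour promoters and 49 were distal. The distal regions comprised 31 in introns, 6 in exons and 12 between genes. The regions in all 10 libraries numbered 11 of 66 (16.7%), against 21.5% of all regions in the series, and 14 (21.2%) were in 1 library, against 28.9%. Among distal regions alone, 19 of 49 (38.8%) were in at least 5 libraries, against 28.2% of all 18956 distal regions. In the heat map of percentiles, the smallest spreads over the 10 libraries were at the Zbtb7a +47.6 kb neighbour promoter (SD 2.18) and the distal Gfi1 −33.3 kb region (SD 3.20). Most of its regions near Ikzf1, Sox6, Gfi1b and Gfi1 were missing from 1 or more libraries of 12 and 24 h. The share of all regions in the series missing in this way is not given here.

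**Figure D1:**
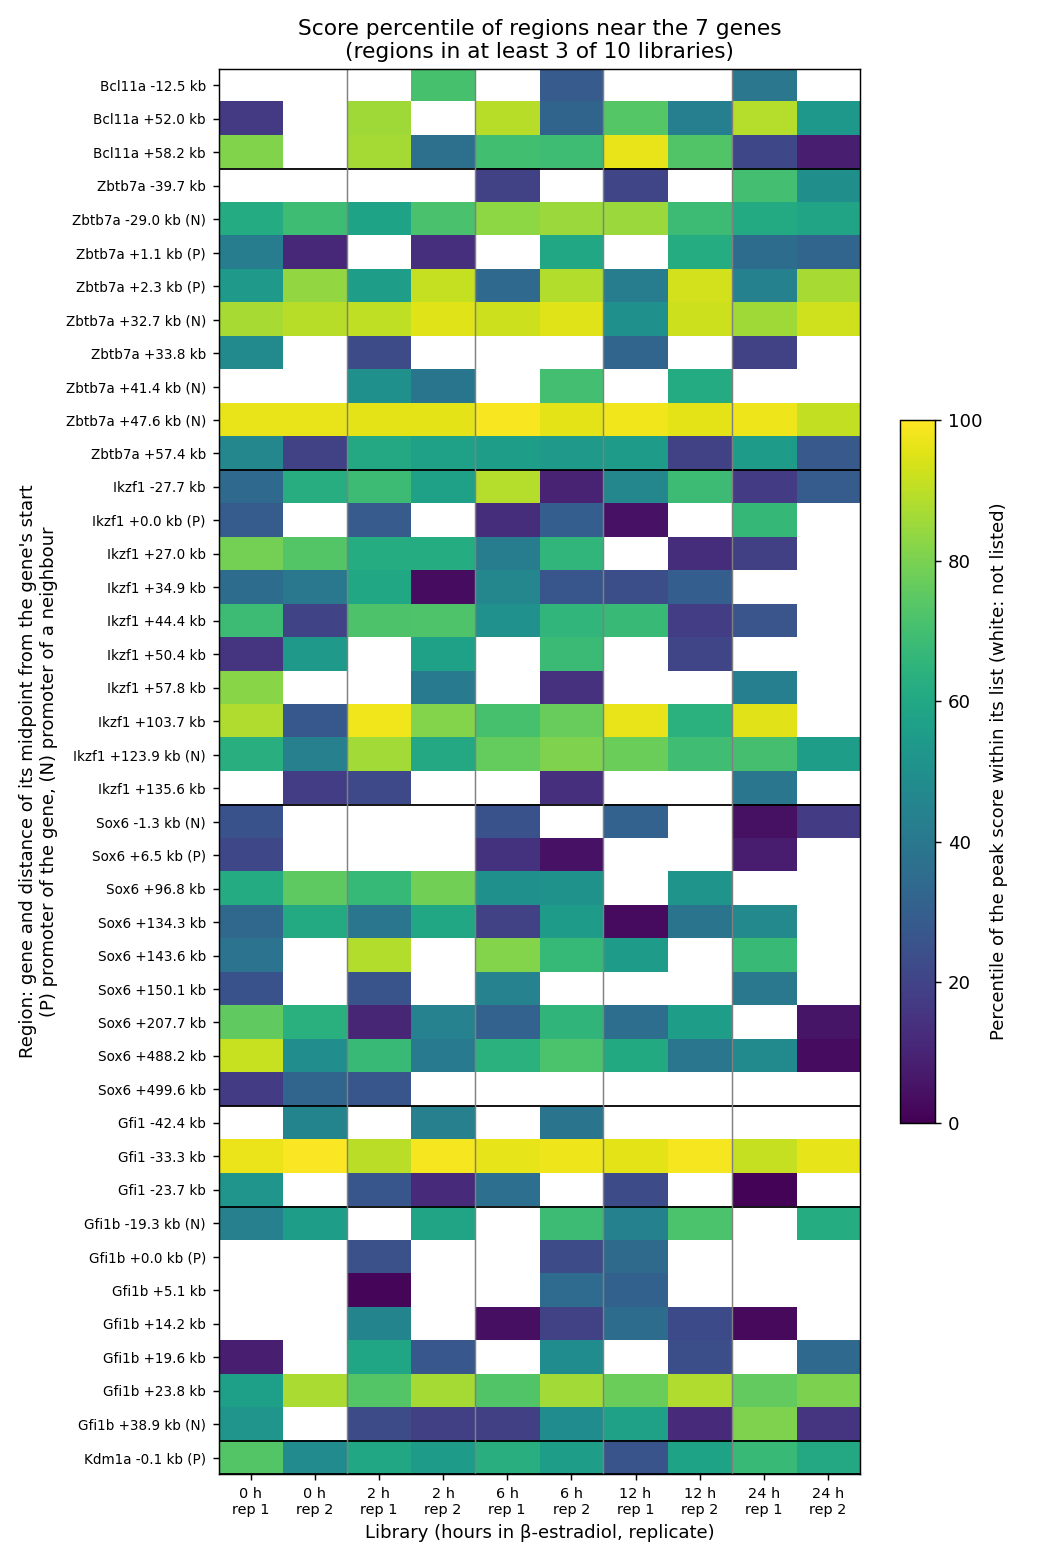
Score percentile (colour, 0 to 100; white, not listed) of the 42 regions near the 7 genes that were in at least 3 of 10 libraries, by library in order of hours in β-estradiol. The Gfi1 −33.3 kb region and the Zbtb7a +47.6 kb neighbour promoter stood above percentile 89 in every library, and the Gfi1b +0.0 kb promoter was listed in 3 libraries.

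The promoters of the 7 genes differed widely in how often they were listed. The Zbtb7a and Kdm1a promoters were in all 10 libraries, that of Ikzf1 in 7, Gfi1b in 4, Bcl11a and Sox6 in 1 each, and Gfi1 in none. Across all protein-coding genes, 26.4% had a promoter summit in every library and 55.5% in none. After trimming all lists to the length of the shortest (10698 peaks), the Ikzf1 promoter was in 1 library, Gfi1b in 2, and Bcl11a and Sox6 in none, so these promoter summits were mostly low in their lists.

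Bcl11a had no summit within 1 kb of its principal start. Its 1 promoter summit, at 6 h in replicate 2, lay within 1 kb of an alternative start, in a region at +3.1 kb (chr11:24080866-24081366) at percentile 3.82. The regions of this gene in the most libraries lay in introns, at +52.0 kb (chr11:24129593-24130464) and +58.2 kb (chr11:24135936-24136676), each with 1 GATA match. As background, human BCL11A carries its erythroid enhancer in an intron. The percentile at +52.0 kb was 17.1, 85.6, 89.3, 73.8 and 88.8 in replicate 1 and unlisted, unlisted, 32.3, 43.3 and 53.2 in replicate 2. At +58.2 kb it was 80.9, 86.6, 69.7, 96.7 and 21.9 in replicate 1 and unlisted, 37.1, 68.9, 72.7 and 8.57 in replicate 2. The +58.2 kb region had its 2 lowest percentiles at 24 h, while the +52.0 kb region was listed in both libraries at 6, 12 and 24 h but in 1 at 0 h and 1 at 2 h. The 0 h replicate 2 list had no Bcl11a summit at all, so a comparison of this gene with 0 h rests on 1 library.

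The remaining Bcl11a regions were in at most 3 libraries each. A distal region 1.8 kb upstream of the gene (chr11:24076037-24076560) appeared at 12 h alone, at percentiles 54.7 and 17.1, and held no GATA match. The −12.5 kb region (chr11:24065317-24065828), in an intron of A830031A19Rik, was the other among the 3 most often listed, at 70.9 at 2 h and 28.7 at 6 h in replicate 2 and 39.6 at 24 h in replicate 1. The number of Bcl11a summits over the 5 time points was 3, 4, 2, 3 and 5 in replicate 1 and 0, 3, 4, 3 and 3 in replicate 2, and the 0 h and 24 h libraries overlapped at 3.

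Zbtb7a lies in a gene-dense stretch of chromosome 10, and more summits fell in its window (7.70 ± 1.34, SD, n = 10) than in those of 98.3% of protein-coding genes. Its promoter at +2.3 kb (chr10:81137188-81137790) was in every list, with percentiles of 54.0, 56.0, 34.1, 42.2 and 43.8 in replicate 1 and 83.9, 91.4, 88.3, 93.1 and 87.0 in replicate 2. The replicates did not overlap: replicate 1 averaged 46.0 ± 9.03 and replicate 2 averaged 88.7 ± 3.63 (SD, n = 5 each). Such a separation upward in replicate 2 was seen in 3.06% of the 6234 regions in all 10 libraries. Within either replicate the time points ranged by less than the gap between the replicate means, and the source of this gap was not tested. The other promoter region, at +1.1 kb (chr10:81135872-81136683) in an exon, was in 7 lists, at percentiles from 11.2 to 61.7.

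The other regions listed throughout the Zbtb7a window belonged to its neighbours. The −29.0 kb region (Map2k2 promoter) ranged from 58.1 to 85.0, the +32.7 kb region (Pias4 promoter) from 50.1 to 95.2, and the +47.6 kb region (promoter of 4930442H23Rik and Dapk3) from 90.7 to 98.8. The only distal one, at +57.4 kb (chr10:81192307-81192909) in an exon of Dapk3, ranged from 19.2 to 60.2. Some regions changed in listing between 0 h and a later time. The Eef2 promoter at +41.4 kb (chr10:81176242-81176934) was in neither 0 h library and in both at 2 h (50.3 and 38.9), then in replicate 2 alone at 6 h (70.1) and 12 h (61.4). The −39.7 kb region (chr10:81095164-81095809), in an intron of the liver gene Creb3l3 and with 1 GATA match, was in neither library at 0 or 2 h, in replicate 1 at 6 h (19.9) and 12 h (21.05), and in both at 24 h (70.2 and 49.8). Of the other distal regions, +33.8 kb (chr10:81168743-81169248) was in 4 lists, all of replicate 1.

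Fewer intronic regions of Ikzf1 were listed at the late time points, a difference for which there is no test. Its 5 distal regions inside the gene, at +27.0, +34.9, +44.4, +50.4 and +57.8 kb, were listed 5, 3, 3, 2 and 3 times in replicate 1 and 4, 5, 5, 4 and 0 times in replicate 2. With lists of equal size the counts were 4, 3, 3, 1 and 1 in replicate 1 and 4, 4, 3, 1 and 0 in replicate 2. All 4 libraries of 12 and 24 h thus stood below all 4 of 0 and 2 h when list size was held equal, whereas the groups overlapped in the full lists. Among the 393 protein-coding genes with at least 5 distal regions inside them, 1.53% showed the same order with equal lists. Sox6 and Bcl11a, which also have at least 5, did not show it, as their early and late counts overlapped. This split of the time points was not among the planned comparisons, so the order in Ikzf1 is a description only. In the full lists, 0 h replicate 2 (11698 peaks) held 4 of the 5 regions and 24 h replicate 2 (10698 peaks) held 0, and the part of list length in these counts was not tested.

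The +27.0 kb region (chr11:11711627-11712310), singled out after its values were seen, holds 2 GATA matches. Its percentile was 79.1, 62.0, 42.0, unlisted and 18.9 in replicate 1 and 73.2, 62.0, 65.8, 13.05 and unlisted in replicate 2. Every value up to 6 h was higher than every value at 12 and 24 h, an order seen in 1.06% of the 13291 regions in at least 5 libraries. As the region was chosen for its values, this is a description only. At +44.4 kb (chr11:11729012-11729758), with 1 GATA match, the percentile was 68.4, 72.0, 50.5, 67.2 and 26.3 in replicate 1 and 20.3, 72.4, 65.7, 18.1 and unlisted in replicate 2. Here 0 h replicate 2 was already close to the 12 h value of replicate 2. The +34.9 kb (chr11:11719599-11720250) and +50.4 kb (chr11:11735116-11735720) regions were in both 0 h libraries, at 35.2 and 40.0 and at 15.3 and 53.6, and in neither at 24 h.

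The promoter and flanks of Ikzf1 did not show that order. The promoter at +0.0 kb (chr11:11684588-11685340) was in 6 lists, all 5 of replicate 1 and 6 h replicate 2, at percentiles from 4.999 to 66.8, with the highest at 24 h, and a promoter region at +1.0 kb (chr11:11685664-11686429) was in 2 lists at 6.62 and 9.36. Upstream, the −27.7 kb region (chr11:11656960-11657647) was in every list but ranged from 9.79 to 88.8, with both extremes at 6 h. Downstream, the +103.7 kb region (chr11:11788396-11789071), in an exon of Fignl1, was in every list but 24 h replicate 2, from 27.7 to 97.9, and the Fignl1 promoter at +123.9 kb was in all 10, from 43.6 to 86.2. Neither of those regions nor the Ikzf1 promoter held a GATA match.

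Sox6 spans 567.9 kb, and most of its distal summits lay within that span. Of its 14 regions, 11 were distal and in introns of the gene, and 8 of its 12 distal regions held a GATA match. The +488.2 kb region (chr7:115550295-115550939) was in all 10 libraries, at percentiles of 91.5, 67.3, 63.9, 60.8 and 47.9 in replicate 1 and 49.1, 40.8, 71.5, 39.3 and 3.18 in replicate 2. Both 24 h values lay below both 0 h values, the closest being 47.9 and 49.1. Of the 6234 regions in all 10 libraries, 15.6% showed this order, as did 4 of the 11 near the 7 genes (Sox6 +488.2 kb, Gfi1 −33.3 kb, Zbtb7a −29.0 kb and Ikzf1 −27.7 kb). The +96.8 kb region (chr7:115941641-115942267), with 2 GATA matches 19 bases apart, had percentiles of 61.5, 67.0, 50.0, unlisted and unlisted in replicate 1 and 75.3, 78.5, 51.4, 51.9 and unlisted in replicate 2. It was thus in both libraries up to 6 h, in 1 at 12 h and in none at 24 h. The +499.6 kb region (chr7:115538835-115539593) was listed at 0 h, at 17.6 and 32.7, and at 2 h in replicate 1 at 26.9, and in no later library.

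Other introns of Sox6 held regions without so clear a course. At +207.7 kb (chr7:115830562-115831616) the percentile was 75.6, 10.7, 31.5, 36.1 and unlisted in replicate 1 and 63.6, 44.3, 65.5, 55.7 and 5.52 in replicate 2, with the highest value of each replicate at 0 h or 6 h. At +134.3 kb (chr7:115904108-115904826) it was 33.4, 39.3, 19.9, 2.96 and 46.9 in replicate 1 and 61.1, 60.0, 55.0, 38.6 and unlisted in replicate 2. The gene's own promoter region at +6.5 kb (chr7:116031695-116032801) was in 4 lists at percentiles from 4.85 to 21.5, and in 1 of these, 0 h replicate 1, the summit lay within 1 kb of an annotated start. The region at −1.3 kb belonged to the promoter of 1110004F10Rik and was in 5 lists at 4.62 to 31.5.

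**Figure D2:**
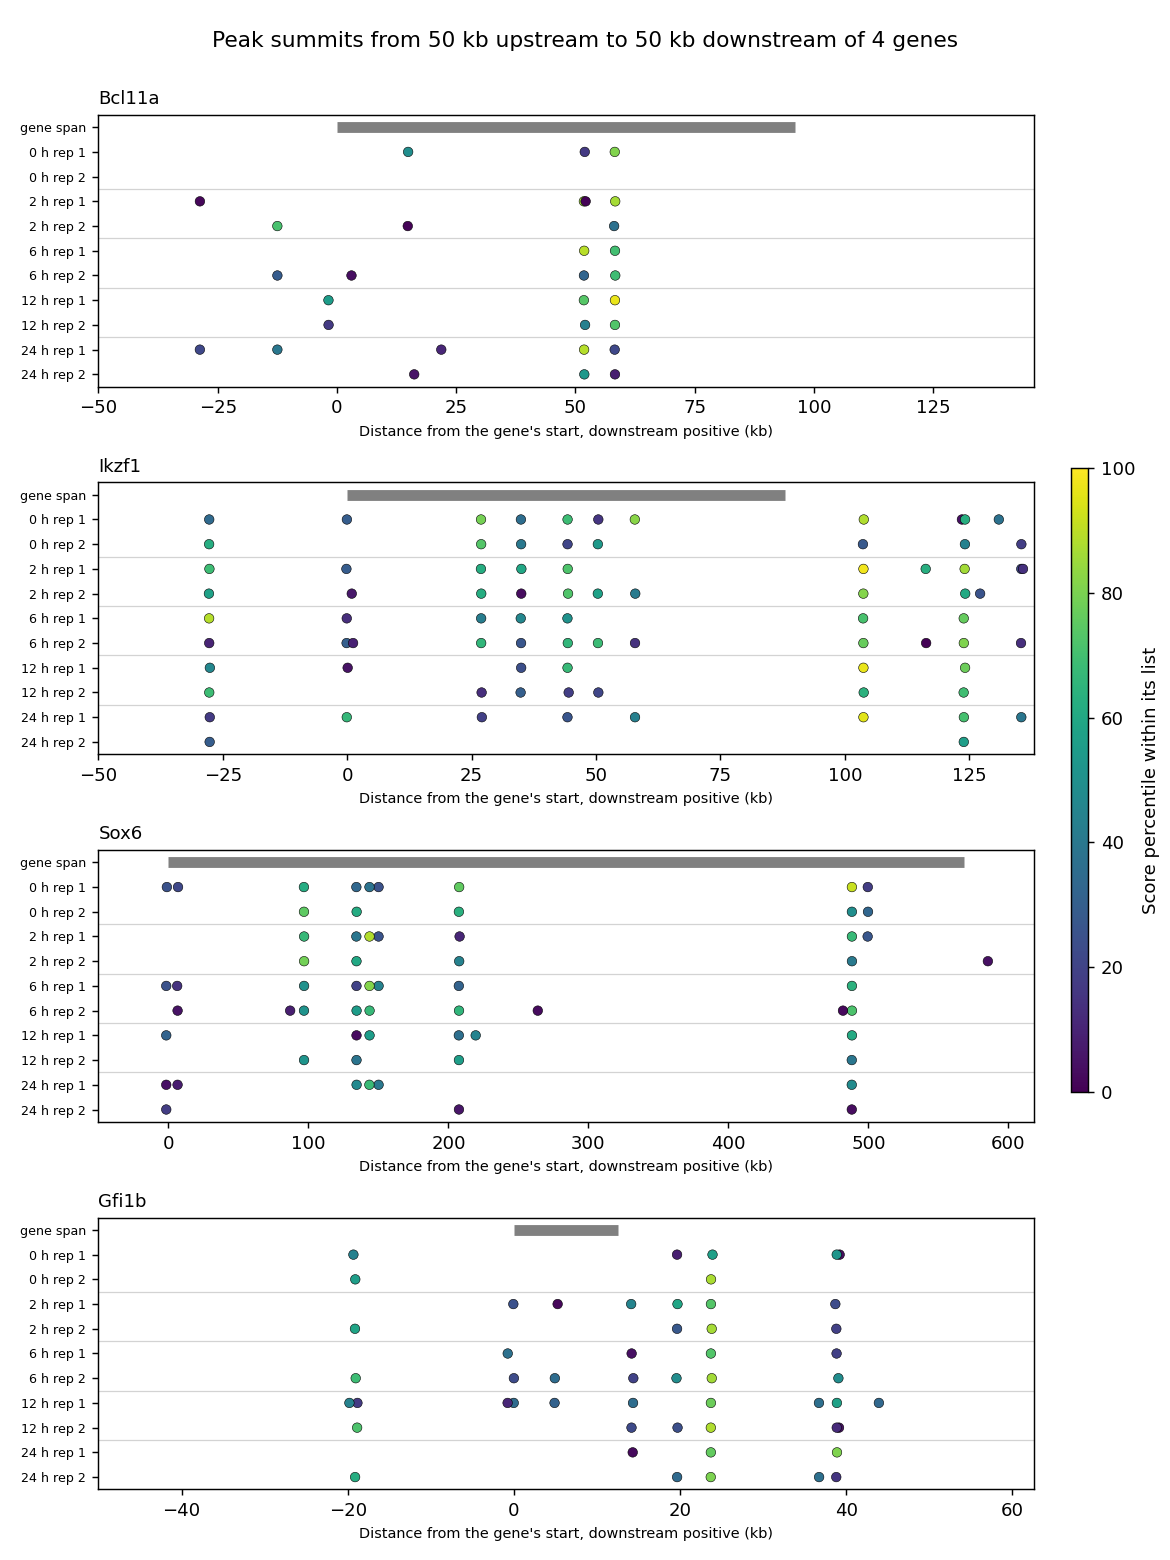
Peak summits (points, coloured by score percentile within their list) at Bcl11a, Ikzf1, Sox6 and Gfi1b by distance from the gene's start in kb, 1 row per library, with the gene span as a grey bar. Bcl11a summits recurred at +52.0 and +58.2 kb, and 24 h replicate 2 had no summit inside the Ikzf1 span.

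Gfi1 had no promoter summit in any library, while a region 33.3 kb upstream of it was among the highest in every list. That region (chr5:107759028-107759654), in an intron of the neighbouring gene Evi5 and with 1 GATA match, had percentiles of 96.9, 89.6, 96.3, 95.7 and 91.1 in replicate 1 and 99.3, 98.8, 97.5, 98.4 and 96.2 in replicate 2. Its mean was 96.0 ± 3.20 (SD, n = 10), and both 24 h values were below both at 0 h. Introns of Evi5 also held a −23.7 kb region (chr5:107749337-107750142) in 6 lists at 1.06 to 52.3 and a −42.4 kb region (chr5:107768136-107768701) in 3 lists of replicate 2, at 45.3, 43.5 and 38.3 at 0, 2 and 6 h, and at no later time.

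Gfi1b, by contrast, had promoter summits in 4 libraries, all between 2 and 12 h. The +0.0 kb region (chr2:28621733-28622301) was listed at 24.9 in 2 h replicate 1, 22.8 in 6 h replicate 2 and 34.5 in 12 h replicate 1, and the −0.7 kb region (chr2:28622475-28622988) at 36.7 in 6 h replicate 1 and 10.6 in 12 h replicate 1. No 0 h or 24 h library had either, and neither region was in both libraries of any time point. After trimming to equal length, 2 libraries had a promoter summit. The share of all genes with such a course is not given here. Downstream of the gene, the +14.2 kb region (chr2:28607360-28608121) was in neither 0 h library, in 2 h replicate 1 at 45.1, in both at 6 h (4.08 and 19.7) and both at 12 h (35.3 and 22.4), and in 24 h replicate 1 at 2.69. With lists of equal size it did not count as gained at 6 h or at 12 h. The intronic +5.1 kb region was in 3 lists, the same ones that held the +0.0 kb promoter.

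The most constant Gfi1b region was at +23.8 kb (chr2:28597830-28598542), downstream of the gene, with 2 GATA matches. Its percentile was 56.4, 73.1, 72.8, 77.6 and 75.8 in replicate 1 and 87.3, 86.6, 86.3, 88.0 and 80.2 in replicate 2. All 5 replicate 2 values (85.7 ± 3.12, SD, n = 5) were above all 5 of replicate 1 (71.1 ± 8.47, SD, n = 5), the separation seen in 3.06% of regions. The lowest value was that of 0 h replicate 1. A nearby +19.6 kb region (chr2:28602039-28602666) held 3 GATA matches and was in 6 lists, from 8.32 to 59.0, in at least 1 library of every time point. The +38.9 kb and −19.3 kb regions were the promoters of Gtf3c5 and Tsc1.

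Kdm1a had almost no listed peak outside its promoter. The promoter region (chr4:136602425-136603123) was in all 10 lists at 73.1, 59.8, 63.0, 26.1 and 67.6 in replicate 1 and 48.1, 55.2, 55.9, 57.9 and 60.3 in replicate 2, with a mean of 56.7 ± 12.8 (SD, n = 10). The lowest value was 12 h replicate 1, and the remaining libraries lay between 48.1 and 73.1. Replicate 2 rose at every step, from 48.1 to 60.3, while replicate 1 had its highest value at 0 h and no order by time. The other region, in an intron at +10.5 kb (chr4:136592002-136592502), was in 2 h replicate 2 alone at 42.7.

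**Figure D3:**
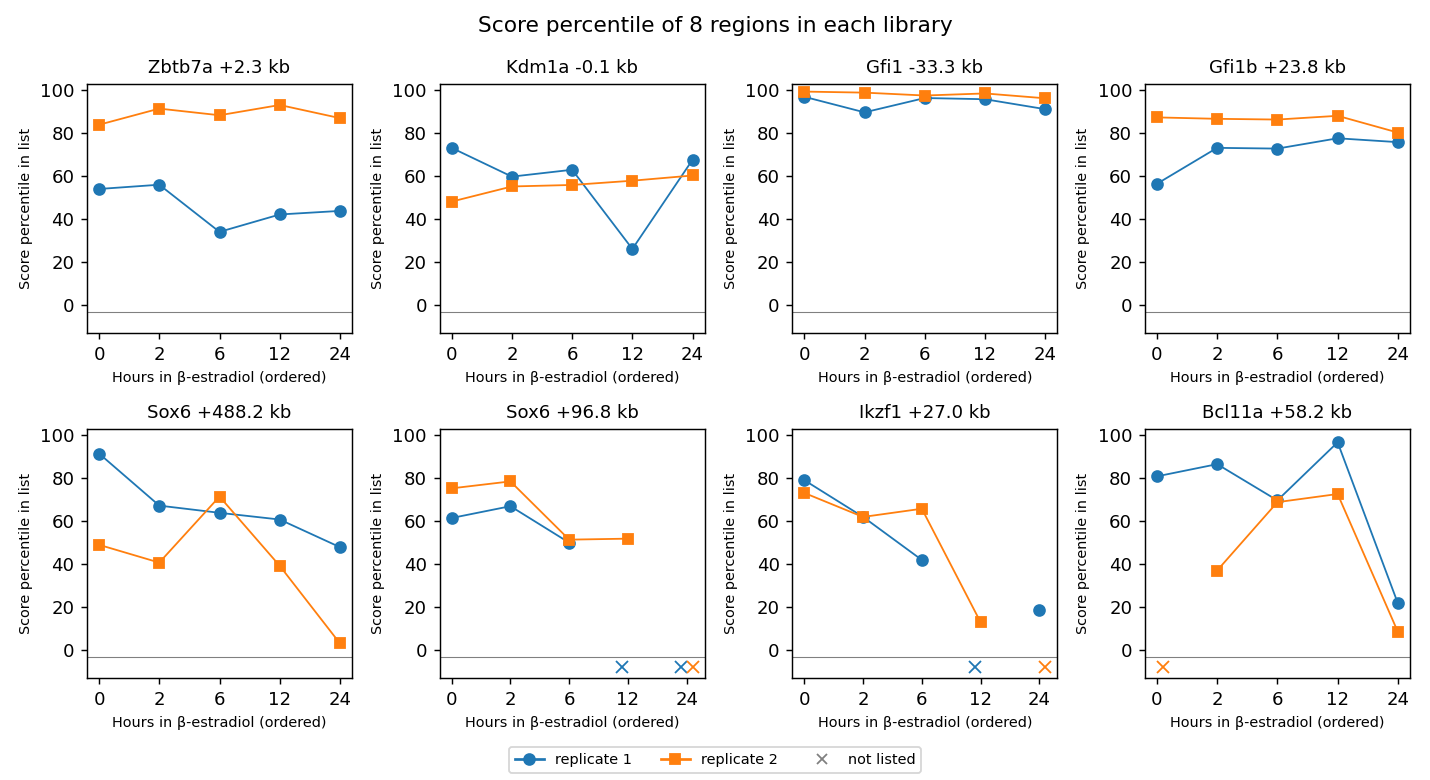
Score percentile within its list of 8 regions by hours in β-estradiol, with replicates 1 and 2 as separate points joined by lines and crosses below the grey line for libraries that do not list the region. Replicate 2 lies above replicate 1 throughout at Zbtb7a +2.3 kb and Gfi1b +23.8 kb, and Sox6 +96.8 kb is unlisted in both 24 h libraries.

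Listing against 0 h was compared at each later time point, with a region counted as gained when it was in both libraries of that time and neither at 0 h, and as lost in the opposite case. With 2 libraries against 2, an exact permutation test cannot go below p = 0.3333, so these are counts with no test. At 2 h, 1 of 66 regions was gained (Zbtb7a +41.4 kb) and 0 were lost, where 2.67% and 1.15% of all 28981 regions were. At 6 h, 1 was gained (Gfi1b +14.2 kb) and 1 lost (Sox6 +499.6 kb), against 4.08% and 0.759%. At 12 h, 2 were gained (Gfi1b +14.2 kb and Bcl11a −1.8 kb) and 1 lost (Sox6 +499.6 kb), against 2.47% and 1.88%. At 24 h, 1 was gained (Zbtb7a −39.7 kb) and 4 were lost, against 1.71% and 3.51%. With lists of equal size, neither region gained at 12 h counted. Their 12 h replicate 2 peaks, at percentiles 22.4 and 17.1, were trimmed away. Bcl11a +52.0 kb, whose 0 h replicate 1 peak at 17.1 was trimmed away, then counted as gained at 12 and 24 h.

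The 4 regions lost at 24 h were all distal and intronic: Ikzf1 +34.9 and +50.4 kb and Sox6 +96.8 and +499.6 kb. They were 4 of the 14 distal regions near the 7 genes that both 0 h libraries held (28.6%), and the same loss was seen at 27% of the 3291 such regions in the series, so the share was near the background. With lists of equal size the count was also 4, but of partly other regions. Ikzf1 +50.4 kb and Sox6 +499.6 kb, at 15.3 and 17.6 in 0 h replicate 1, were trimmed from that list. Sox6 +499.6 kb thus did not count as lost at any time with equal lists. Ikzf1 +27.0 and +44.4 kb, at 18.9 and 26.3 in 24 h replicate 1, were trimmed there and counted as lost instead. Leaving out either library of a compared time point relaxes the rule to 1 library there. Without 24 h replicate 1, 8 regions counted as lost at 24 h, and without 0 h replicate 2 the lost counts at 2, 6 and 12 h were 3, 4 and 6. They were also 3, 4 and 5 without replicate 2 of the later time itself, and 3 at 12 h without 0 h replicate 1. The highest gained counts were 7 at 2 h without either 2 h library, 12 without 6 h replicate 1, 11 without 12 h replicate 2 and 8 without 24 h replicate 2. Without 0 h replicate 1 the gained counts at the 4 later times were 5, 7, 5 and 5, and they were 3 without 6 h replicate 2 or without 24 h replicate 1 at those times.

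The number of summits per gene gave the same picture of wide replicate spread. Over the 5 time points Ikzf1 had 11, 10, 7, 6 and 8 summits in replicate 1 and 8, 10, 12, 7 and 2 in replicate 2. Sox6 had 9, 7, 8, 6 and 6 in replicate 1 and 5, 5, 9, 4 and 3 in replicate 2. Gfi1b had 5, 6, 4, 10 and 3 in replicate 1 and 2, 4, 7, 6 and 5 in replicate 2, with the highest mean at 12 h. In the full lists, none of the 7 genes had both 24 h libraries below or above both 0 h libraries, where 3.82% of genes were below and 3.35% above. With lists of equal size, 3 of the 7 had both 24 h libraries below 0 h: Ikzf1 (8 and 8 against 5 and 2), Sox6 (5 and 5 against 4 and 3) and Gfi1 (2 and 2 against 1 and 1). Of all genes, 3.81% were below and 5.06% above in that comparison, a background that includes genes with no summit.

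**Figure D4:**
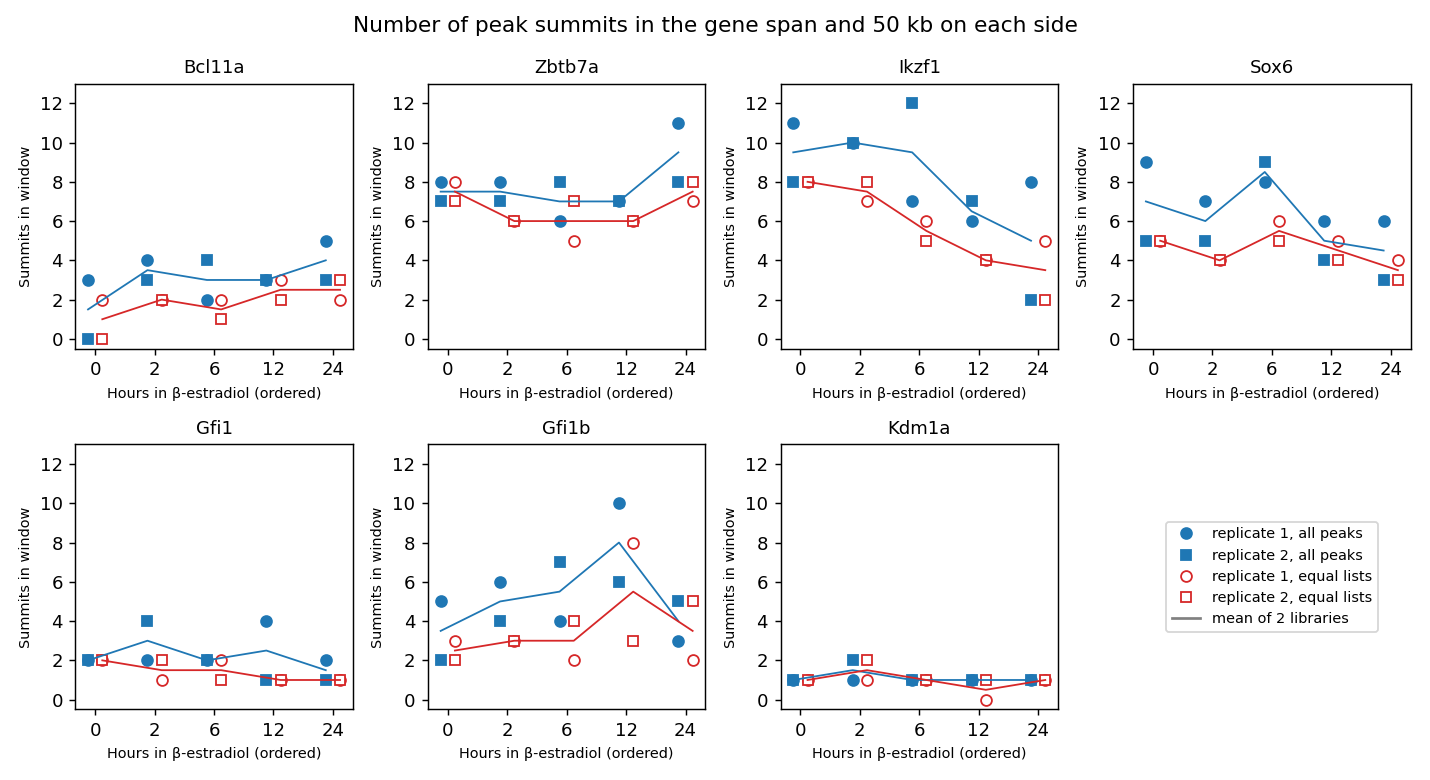
Number of peak summits in the span of each of the 7 genes and 50 kb on each side by hours in β-estradiol, for all peaks (filled) and for lists cut to the same 10698 peaks (open), with circles for replicate 1, squares for replicate 2 and lines through the means. Ikzf1 goes from 8 and 8 at 0 h to 5 and 2 at 24 h with equal lists, and Kdm1a stays between 0 and 2.

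Rank within the list was tested for the 6234 regions in all 10 libraries, 11 of them near the 7 genes, with limma on rank percentiles computed among those regions. No region of the 6234 passed a Benjamini-Hochberg adjusted p of 0.05 at 2, 6, 12 or 24 h against 0 h or in a trend over the 5 time points (0% called in each), and 237, 232, 236, 323 and 350 had an unadjusted p under 0.05. Among the 11, the lowest adjusted p-values were at Sox6 +488.2 kb, with estimates of −44.7 ± 18.5 percentile points (SE) at 24 h (limma adjusted p = 0.931) and −9.25 ± 3.81 per time step (adjusted p = 0.843). For the other 10, estimates at 24 h ran from −16.6 to 11.5 points, and all adjusted p-values were 1 there. With 2 libraries per time point, these p-values do not show that ranks stayed the same.

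A wider test took the 13291 regions in at least 5 libraries, 30 of them near the 7 genes, and set an absent region to percentile 0. In the trend, 2 of the 13291 (0.015%) passed and none was near the 7 genes. With the replicate as a block in limma, 0 of the 13291 passed, and 1213 had an unadjusted p under 0.05. The smallest adjusted p in that limma fit was 0.0673. The smallest adjusted limma p-values among the 30 were at Ikzf1 +27.0 kb, with −18.9 ± 3.06 points per time step (adjusted p = 0.0841, and 0.101 with the replicate as a block), and Sox6 +96.8 kb, with −18.4 ± 3.61 (adjusted p = 0.147, and 0.101 with the block). Bcl11a +52.0 kb had a slope of 14.1 ± 6.16 (adjusted p = 0.619, and 0.220 with the block). None of these passed.

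GATA sequences were common in the distal regions of the 7 genes. WGATAA on either strand was in the central 200 bases of 24 of 49 distal regions (49.0%), against 38.0% of all 18956. The share near the 7 genes was 40.7% with 100 bp windows, 50.0% with 500 bp windows and 52.6% with lists of equal size. With 1 library left out it ran from 42.9% to 52.2%. The shares of all distal regions under these settings are not given here. Among distal regions in at least 5 libraries it was 13 of 19 (68.4%) against 46.3%, and among those in 1 or 2 libraries 5 of 21 (23.8%) against 33.0%. By gene, Sox6 had 8 of 12, Ikzf1 6 of 11, Bcl11a 3 of 8, Gfi1b 3 of 6, Gfi1 2 of 5, Zbtb7a 1 of 6 and Kdm1a 1 of 1. Of the distal regions that both 0 h libraries held and that were missing from at least 1 library at 24 h, 6 of 9 (66.7%) had a match, against 62.4% in the series. These are shares with no test, and a match is a description of the letters only.

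A composite of CTG, 7 or 8 bases of any kind and then WGATAA, the arrangement bound jointly by TAL1 and GATA1, was in 2 of 49 distal regions (4.08%), against 7.10% in the series, and in the Gfi1b promoter. The matches, 5′ to 3′ on the strand that reads CTG, were as follows.
Sox6 +207.7 kb (chr7:115831154-115831170, plus): CTGGAGTACAGAGATAA
Sox6 +143.6 kb (chr7:115895219-115895235, minus): CTGCATGATAGAGATAA
Gfi1b +0.0 kb (chr2:28622097-28622113, minus): CTGTGAAGTTTTGATAA
The Sox6 +143.6 kb region (chr7:115894864-115895518) was in 6 lists, all 5 of replicate 1 and 6 h replicate 2, from 38.0 to 88.4.

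Promoter listing was also read for genes of the NuRD, CoREST and DRED complexes and for 10 other regulators of fetal-type globin or of Bcl11a. Of these 31 genes, 17 had a promoter summit in all 10 libraries, 3 in none and 11 in some. Across all genes, 26.4% were in all and 55.5% in none. By list, all 10 libraries held 3 of 6 CoREST genes, 2 of 3 DRED genes and 4 of the 10 other regulators. In NuRD, the complex used by BCL11A and ZBTB7A, these were 8 of 12 in all libraries, among them Hdac1, Hdac2, Mta2 and Mbd3, while Mta1 was in none. The promoter of Chd4, the NuRD remodeller, was in all 5 replicate 2 lists and no replicate 1 list, and the share of all promoters split in this way is not given here. In CoREST, the KDM1A complex, Rcor1 and Hmg20b were in all 10, Rcor3 in 9, Phf21a in 7 and Rcor2 in 3. Among other regulators of fetal-type globin, Zfp410, which drives the NuRD gene Chd4, was in all 10, and Klf1, the erythroid activator of Bcl11a and Zbtb7a, was in 4. The promoter of Myb was in 5 lists, at 0, 2 and 6 h only, and the share of all promoters with that order is not given here. Of the remaining partly listed genes, Mbd2 and Nr2c1 were in 8, Mta3 and Nfix in 4 and Nfia in 3. Lin28b and Igf2bp1, which mark fetal-type programs, were in none.

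Markers of cell type were read from promoter listing alone. Of 9 erythroid genes, 5 were in all 10 libraries (among them Epor, Nfe2 and Tfrc), Klf1 was in 4, Tal1 in 2, and Alas2 and Slc4a1 in none. All 6 lymphoid markers and the 3 liver markers were in none. Kit, shared by progenitors and mast cells, was in 9. The other 5 genes counted as mast cell markers, Gata2, Cpa3, Fcer1a, Ms4a2 and Mcpt8, were in none. Of 4 myeloid markers only Spi1 was listed, in 9. Per the paper, undifferentiated G1ER cells have high GATA2 expression, so an unlisted promoter does not show that a gene is silent.

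Promoters whose percentile followed those of Zbtb7a and Kdm1a most closely were sought among 5721 genes on other chromosomes with a promoter region in all 10 libraries. For Zbtb7a the highest Spearman rho values over the 10 libraries were 0.976 with Kdm2a and 0.964 with both Bud23 and Dnajc30. For Kdm1a they were 0.903 with Ngdn and Tmem218 and 0.879 with Rnaseh1. These points share libraries and list sizes, and the rho for Zbtb7a follows its split by replicate number.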

How the data were processed

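ATAC-seq peak lists of 10 G1E-ER4 libraries were analysed. Per the paper's methods and the submitters' processing notes, the authors aligned reads to mm10, keeping unique reads, and called peaks in each library separately with MACS2 and no fragment model. The methods name Bowtie2 and the notes Bowtie 1.0.0 and Picard, and no shift for transposase insertion is given in the sources used here. The deposited values are 1-base summits with a score, the −log10 of the q-value (lowest 1.30). No column belonged to a sample of another series.

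Windows of 250 bp on each side of every summit were merged across libraries. Summits and genes were placed with GENCODE M21 and the GRCm38.p6 genome (mm10), within which all 146939 summits fell, and 14 of 14 RefSeq promoter sequences of the 7 genes matched it at their coordinates. Groups came from the time labels. Percentiles were tested with limma 3.58.1 (R 4.3.3) over all regions in all 10 libraries, with Benjamini-Hochberg adjustment, and the code was checked on simulated data. Other steps used Python 3.11.15, pandas 2.3.3 and pysam 0.24.0.

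Replicate numbers come from the labels. Same-numbered libraries deviated together at every pair of time points (correlations from 0.185 to 0.366 over 10 pairs), so a fit with the replicate as a block was an alternative. Others were windows of 100 and 500 bp, lists of equal size, a score of at least 2, promoters within 500 bp, percentiles over the full list, quantile-normalised log2 scores, absent regions at percentile 0, time in hours, and leaving out each library. The named regions were every promoter, the 3 distal regions per gene in the most libraries, and every gained or lost region. The genes, lists and tests were chosen with earlier results of these data known.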

Additional observations from a re-analysis of the deposited data

How the results depend on the processing

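Of 32 results, 112 of 126 recomputed values counted as the same, as did 278 of 300 with 1 library left out. Part of this was fixed in advance. A left-out library of a time point not compared does not enter a gained or lost call. A promoter in all 10 libraries could only go to 9. Rank calls near the 7 genes were 0 in every fit. The totals therefore do not measure how robust the results are. Counts had to stay within 1.5 times the reported count, summit differences within the replicate spread and the GATA share within its confidence interval. Only the rank change of Sox6 +488.2 kb had to keep its sign. Summit differences did not: Gfi1b at 24 h minus 0 h was 0.5, and −1.0 without 0 h replicate 2. Lists of equal size moved most: gained regions were 2, 0, 1 and 2 at 2, 6, 12 and 24 h, lost regions were 1 at 2 h and 0 at 6 h, and the promoters of Ikzf1 and Gfi1b were in 1 and 2 libraries and those of Bcl11a and Sox6 in 0. With 100 bp windows, 2 regions were lost at 6 h and 2 gained at 24 h, and with 500 bp windows 2 were gained at 6 h. With 500 bp promoters, Sox6 was in 0 libraries. The cause of these shifts was not tested beyond the smaller lists themselves.

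With each library left out in turn, gained counts ran from 1 to 7 at 2 h, 1 to 12 at 6 h, 2 to 11 at 12 h and 1 to 8 at 24 h, each highest without a library of that time, and lost counts ran from 0 to 3, 1 to 4, 1 to 6 and 4 to 8. The Bcl11a and Sox6 promoters went from 1 to 0 without 6 h replicate 2 and 0 h replicate 1. The replicate block changed no call near the 7 genes: 0 of the 11 regions passed with or without it. Over all regions, it ended the 2 calls of the trend with absent regions at percentile 0, a fit added after seeing the data. Depth is unknown, and low-ranked summits come and go with list size.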
